A study of Mus musculus with 12 samples.

Results

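The chemokine ligands of the mouse heart were examined in 12 hearts. A gene was taken as a ligand if its symbol began with Ccl or Cxcl followed by a digit, or was *Cx3cl1* or *Xcl1*, and 36 of the 19308 genes in the count table met this rule. The hearts came from C57BL/6 mice that were either wild type (WT) or carried a global CRISPR-Cas9 deletion of *Fabp3*, the fatty acid binding protein of heart muscle (F3-KO). Mice of both genotypes were operated at 8 weeks of age, either with transverse aortic constriction (TAC), in which a ligature narrows the aortic arch and raises the pressure load on the left ventricle, or with the sham procedure without constriction, and hearts were taken 1 week later. The 4 groups were WT sham, F3-KO sham, WT TAC and F3-KO TAC, with 3 hearts in each. The deletion was present in every cell of the animal, so that the F3-KO groups are not a model of loss in cardiomyocytes alone.

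Chemokines are small secreted proteins that guide leukocytes along a gradient by binding G protein-coupled receptors. They are classed by the spacing of their first conserved cysteines, and the receptors largely follow these classes. In the heart, resident macrophages, fibroblasts, endothelial cells and infiltrating leukocytes all make them, and pressure overload is known to draw monocytes that carry the receptor Ccr2. A further set, with *Cxcl12* and *Ccl21a* among them, is made without injury and places cells in tissues, lymphatics and lymph nodes.

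The classes are visible in the coding sequences. The stretches below are shown because they carry the cysteine spacing that divides the ligands discussed here. They are coding bases from GENCODE M21 (build GRCm38), written 5′ to 3′ along the transcript, and the capitals mark the codons of the cysteine pair. The genes lie on chromosome 11 (*Ccl8* and *Ccl12*, plus strand), chromosome 4 (*Ccl21a*, minus strand), chromosome 5 (*Cxcl9* and *Cxcl10*, minus strand), chromosome 13 (*Cxcl14*, minus strand) and chromosome 8 (*Cx3cl1*, plus strand).
Ccl8, coding bases 85 to 108: ccagtcaccTGCTGCtttcatgta
Ccl12, coding bases 88 to 111: ccagtcacgTGCTGTtataatgtt
Ccl21a, coding bases 82 to 105: ggtcaggacTGCTGCcttaagtac
Cxcl9, coding bases 79 to 105: aatgcacgaTGCtccTGCatcagcacc
Cxcl10, coding bases 79 to 105: acggtccgcTGCaacTGCatccatatc
Cxcl14, coding bases 64 to 90: gggtccaagTGTaagTGTtcccggaag
Cx3cl1, coding bases 85 to 117: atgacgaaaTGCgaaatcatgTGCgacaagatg
In the CC ligands (*Ccl8*, *Ccl12*, *Ccl21a*) the cysteine codons are adjacent. In the CXC ligands (*Cxcl9*, *Cxcl10*, *Cxcl14*) 1 codon separates them, and in *Cx3cl1* 3 codons do.

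The ligand genes are clustered in the genome (RefSeq, GRCm38.p6). Of the 36, 12 lie on chromosome 11 and 9 on chromosome 5. *Ccl2* (chr11:82035577-82037452), *Ccl7* (chr11:82045712-82047525), *Ccl11* (chr11:82057832-82062955), *Ccl12* (chr11:82101845-82103399) and *Ccl8* (chr11:82115185-82116799) follow each other on chromosome 11, and *Cxcl9* (chr5:92321331-92328079) and *Cxcl10* (chr5:92346638-92348889) are close to each other on chromosome 5.

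The libraries held 10424334 to 14372011 counts each. *Fabp3* was at 2116 to 3061 CPM, that is, counts scaled to a common library size, in the 6 WT hearts and at 1001 to 1142 CPM in the 6 F3-KO hearts, and it fell in F3-KO hearts after both operations (adjusted p = 0.00784 after sham and 0.00146 after TAC, edgeR). Its remaining reads could not be placed within the gene, since the counts are per gene. The hypertrophy markers *Nppb*, the gene of brain natriuretic peptide, and *Acta1*, skeletal actin, rose after TAC over both genotypes (adjusted p = 0.0105 and 0.0248), and no TAC heart had less *Nppb* than any sham heart. The markers *Nppa* and *Myh7*, the slow myosin heavy chain, did not follow the surgery in every heart. *Nppa* was at 143 CPM in WT TAC replicate 2 and 153 CPM in F3-KO TAC replicate 1. Both values lay within the sham range of 37.1 to 339 CPM, and the other TAC hearts were above it. *Myh7* was at 9172 CPM in WT sham replicate 2 and 174 CPM in F3-KO TAC replicate 1. All 6 cardiomyocyte markers were present, with a summed level of 46810 to 83970 CPM. Some hearts stood apart from their group. The Spearman correlation across genes was 0.979 between F3-KO TAC replicates 1 and 2 and 0.960 between either of them and replicate 3, and the summed level of 7 fibroblast markers was 3825, 6559 and 1413 CPM of the library total in these hearts. WT TAC replicate 1 correlated at 0.968 with the other WT TAC hearts, against 0.982 between those. WT sham replicate 2 correlated with the other WT sham hearts at 0.978 and 0.977, against 0.986 between those, and had a summed level of 7 neutrophil markers of 35.8 CPM against 2.49 and 1.5. In whole-heart RNA, more cells of a type and more RNA per cell cannot be told apart.

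Of the 36 ligands, 21 passed the filter on low counts and were tested, and 15 did not. *Ccl1*, *Ccl20*, *Ccl27b* and *Cxcl3* had 3 counts or fewer in every library and were not detected. 3 counts correspond to 0.209 to 0.288 CPM, depending on the library, a limit that covers counting error only. The other 11 were too low to test. *Cxcl13*, a B cell attractant, reached 30 counts in WT TAC replicate 3 and at most 6 in any other heart. *Ccl19*, the ligand that shares the receptor Ccr7 with the Ccl21 proteins, reached 26 counts and was at 0 in 7 hearts. *Ccl22*, *Ccl28*, *Ccl3* and *Ccl4* had at most 18, 14, 13 and 13 counts, and *Ccl17*, *Cxcl2*, *Cxcl15*, *Cxcl17* and *Xcl1* at most 8. No differences between the groups are stated for them.

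Per kilobase of annotated exon, the mean level in WT sham hearts was highest for *Ccl21a*, a lymphatic and lymph node chemokine, at 64.0 CPM per kb. It was followed by *Cxcl12*, the ligand of Cxcr4, at 30.9 CPM per kb, *Cxcl14*, a chemokine of epithelia and stroma, at 18.1 CPM per kb, and *Ccl6* at 16.6 CPM per kb. The lowest of those with a length were *Cxcl10* at 0.211 CPM per kb and *Ccl25* at 0.185 CPM per kb. A length was found for 20 of the 21 tested ligands. It joins all annotated exons of all transcripts of a gene and can exceed the length of the transcript made in the heart. The order depends on it: *Cxcl12* was divided by 8176 bases and *Ccl21a* by 870. Before this division *Cxcl12* was the higher, with a mean of 253 CPM in WT sham hearts against 55.7 CPM for *Ccl21a*.

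The effect of pressure overload was asked by comparing TAC with sham over both genotypes. The CC ligands *Ccl8* and *Ccl12* showed the largest differences, *Ccl8* 3.51-fold and *Ccl12* 3.24-fold higher after TAC, followed by the interferon-inducible ligands *Cxcl10* and *Cxcl9*. 14 of 21 tested ligands were higher after TAC. 0 of 21 passed the adjusted threshold of 0.05 in edgeR's quasi-likelihood test over all 14094 genes tested, where 0.0780% of the genes passed it. At an unadjusted p under 0.05, 9 ligands were higher and 0 lower, against 17.8% of all genes in either direction and 11.3% higher. The median log2 fold change of the tested ligands was 0.47, and that of all tested genes 0.00. DESeq2's Wald test called 4 ligands, *Ccl8*, *Ccl12*, *Ccl21c* and *Cxcl9* (4.66% of all genes). With limma-trend 1 was called, *Ccl8*, and the share of all genes called by it is not given here.

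**Figure D1:**
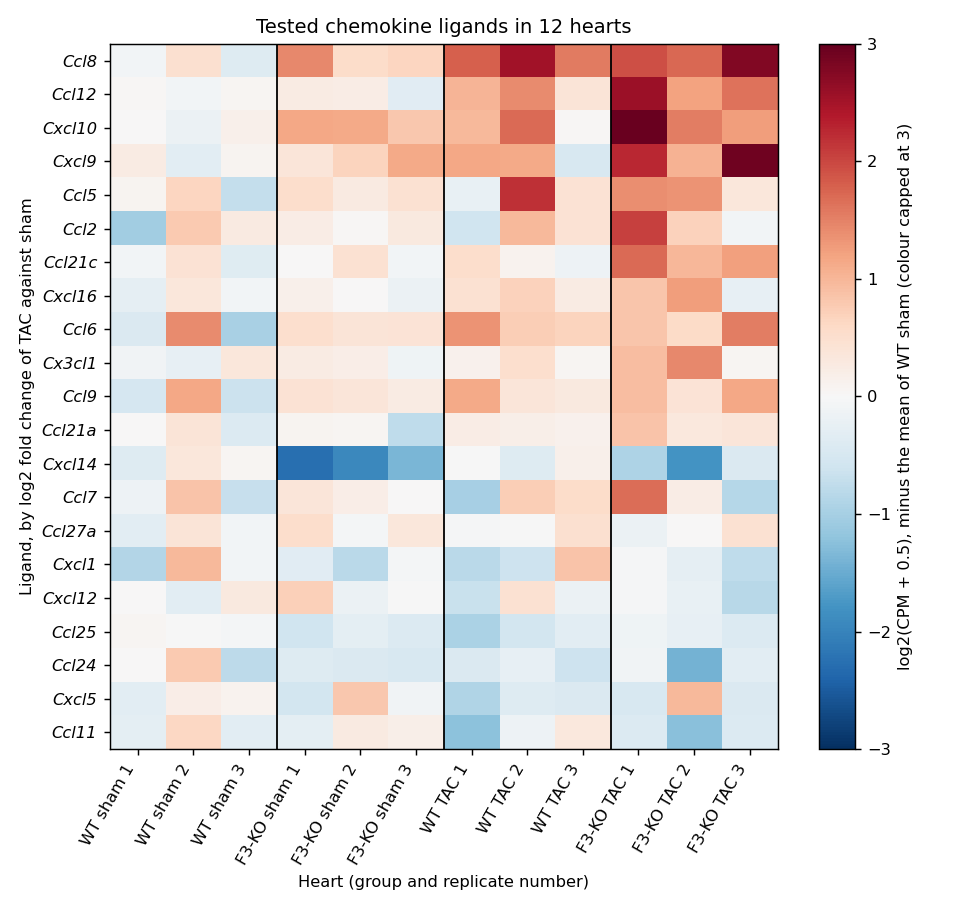
Each row is a tested ligand and each column a heart; colour gives log2(CPM + 0.5) minus the mean of the 3 WT sham hearts, with red for higher and blue for lower values and the colour capped at 3. The upper rows are red in most TAC hearts, *Ccl8* in 6 of them, while *Cxcl14* is blue in the 3 F3-KO sham hearts.

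The 4 ligands listed here as monocyte attractants, *Ccl2*, *Ccl7*, *Ccl8* and *Ccl12*, differed among themselves and do not all bind Ccr2. *Ccl8*, a ligand of Ccr8 in the mouse and a product of tissue macrophages, was at 1.65, 2.66 and 1.23 CPM (WT) and 5.65, 2.85 and 3.02 CPM (F3-KO) after sham, and at 7.37, 12.5 and 6.20 CPM (WT) and 8.19, 7.01 and 15.2 CPM (F3-KO) after TAC. Every TAC heart was above every sham heart. Over both genotypes, the log2 fold change of TAC against sham was 1.81 ± 0.30 (SE; adjusted p = 0.0576, edgeR). It lay between 1.61 and 2.01 when any heart was left out, and its adjusted p was under the threshold without WT sham replicate 2 (0.0294), without F3-KO TAC replicate 2 (0.0348) and without F3-KO TAC replicate 3 (0.0159).

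*Ccl12*, a ligand of Ccr2, was at 1.46, 1.28 and 1.47 CPM (WT) and 1.75, 1.73 and 1.01 CPM (F3-KO) after sham, and at 3.37, 4.58 and 2.0 CPM (WT) and 10.8, 3.89 and 5.35 CPM (F3-KO) after TAC. The sham hearts of both genotypes lay close together and below all 6 TAC hearts, and F3-KO TAC replicate 1 was the highest. TAC against sham gave a log2 fold change of 1.69 ± 0.31 (adjusted p = 0.0648, edgeR), with an adjusted p of 0.0357 without F3-KO TAC replicate 2 and 0.0199 without F3-KO TAC replicate 3.

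*Ccl2*, the best known ligand of Ccr2, did not separate the groups. It was at 0.388, 2.66 and 1.72 CPM (WT) and 1.66, 1.38 and 1.74 CPM (F3-KO) after sham, and at 0.706, 3.08 and 2.0 CPM (WT) and 7.13, 2.48 and 1.24 CPM (F3-KO) after TAC. 1 heart, F3-KO TAC replicate 1, lay above all others, and the TAC and sham hearts overlapped. The log2 fold change was 0.72 ± 0.51 (adjusted p = 0.486, edgeR) and 0.24 without that heart. *Ccl7*, a further Ccr2 ligand next to *Ccl2*, ranged from 0.706 to 7.13 CPM and was highest in the same heart, with a log2 fold change of 0.38 ± 0.53. Of the 5 neighbours on chromosome 11, *Ccl12* and *Ccl8* at one end thus had log2 fold changes of 1.69 and 1.81, and *Ccl2*, *Ccl7* and *Ccl11* had 0.72, 0.38 and -0.59.

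The interferon-inducible ligands of Cxcr3, the receptor of activated T cells, are described next. *Cxcl9* was at 7.77, 5.13 and 6.87 CPM (WT) and 8.48, 10.6 and 14.8 CPM (F3-KO) after sham, and at 15.2, 14.8 and 4.50 CPM (WT) and 33.3, 14.0 and 52.0 CPM (F3-KO) after TAC. WT TAC replicate 3 was lower than any sham heart, and F3-KO TAC replicates 1 and 3 were higher than all others. TAC against sham gave a log2 fold change of 1.18 ± 0.34 (adjusted p = 0.131, edgeR).

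*Cxcl10* was at 0.485, 0.366 and 0.572 CPM (WT) and 1.66, 1.64 and 1.19 CPM (F3-KO) after sham, and at 1.41, 2.64 and 0.50 CPM (WT) and 7.05, 2.29 and 1.81 CPM (F3-KO) after TAC. The 3 F3-KO TAC hearts were above all 6 sham hearts, and WT TAC replicate 3 lay within the WT sham range. For *Cxcl10* the log2 fold change was 1.48 ± 0.45 (adjusted p = 0.144, edgeR), with 1.64 (adjusted p = 0.0498) without F3-KO TAC replicate 3 and 1.05 (adjusted p = 0.269) without F3-KO TAC replicate 1, the highest heart. *Cxcr3* itself was too low to test, at 0.0831 to 1.06 CPM.

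**Figure D2:**
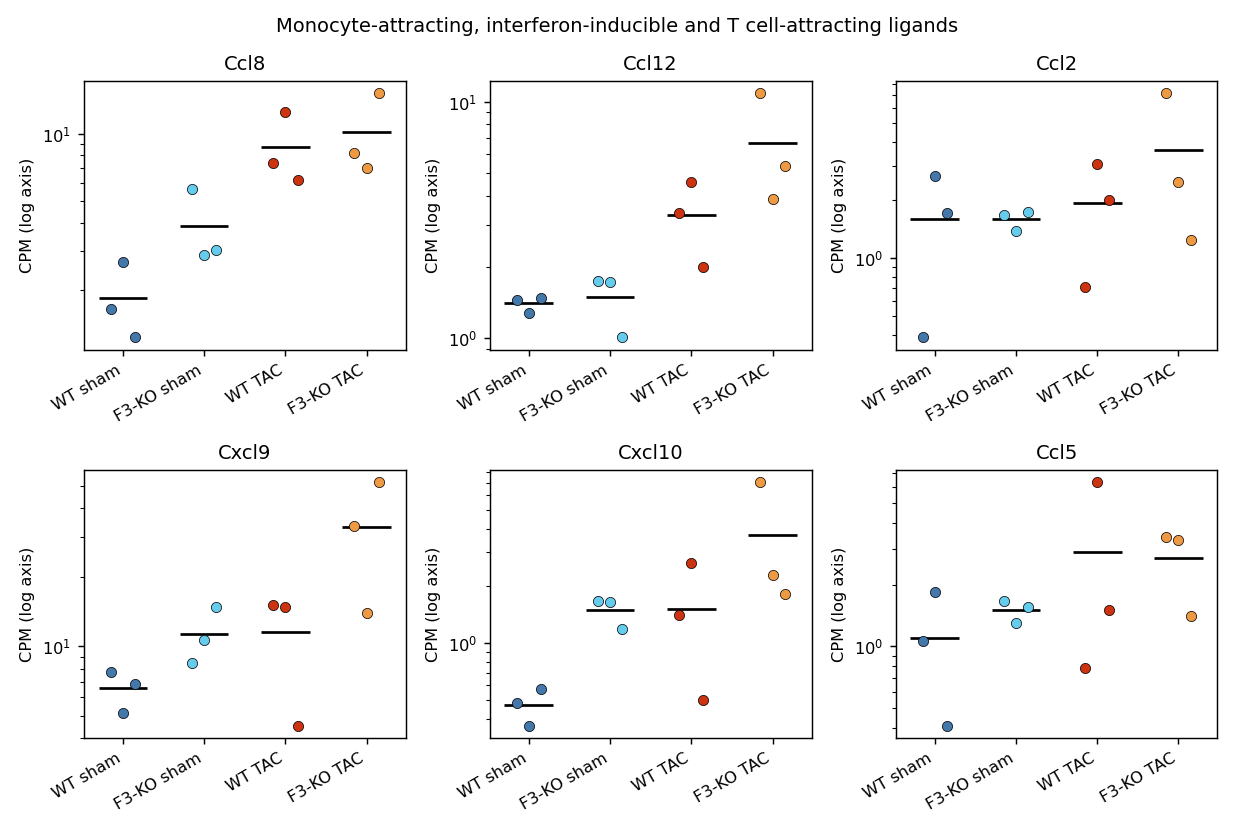
CPM on a log axis for 6 ligands in the 4 groups; each point is a heart and the line is the group mean of 3 hearts. *Ccl8* and *Ccl12* are higher in all 6 TAC hearts than in the 6 sham hearts, whereas *Ccl2*, *Ccl5*, *Cxcl9* and *Cxcl10* overlap between sham and TAC.

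Among the inflammatory CC ligands, *Ccl5*, which T cells and platelets carry, was at 1.07, 1.83 and 0.409 CPM (WT) and 1.66, 1.30 and 1.56 CPM (F3-KO) after sham, and at 0.784, 6.34 and 1.5 CPM (WT) and 3.41, 3.31 and 1.40 CPM (F3-KO) after TAC. Only WT TAC replicate 2 and F3-KO TAC replicates 1 and 2 were above the sham range. For *Ccl5* this amounted to a log2 fold change of 1.12 ± 0.51 (adjusted p = 0.276, edgeR) over 12 hearts, and 0.45 (adjusted p = 0.589) without WT TAC replicate 2.

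*Ccl6*, a macrophage product, was at 16.5, 61.5 and 11.2 CPM (WT) and 32.1, 29.9 and 30.3 CPM (F3-KO) after sham, and at 58.7, 38.0 and 36.4 CPM (WT) and 40.5, 33.9 and 66.2 CPM (F3-KO) after TAC. All TAC hearts exceeded all sham hearts other than WT sham replicate 2, which was the second highest of the 12. The log2 fold change was 0.59 ± 0.35 (adjusted p = 0.396, edgeR) with that heart and 1.14 without it (adjusted p = 0.041). *Ccl9*, its neighbour on chromosome 11, was also highest among sham hearts in WT sham replicate 2 at 36.5 CPM, with a log2 fold change of 0.47 ± 0.30.

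The 2 ligands that are made as membrane-anchored proteins, and shed to become soluble, were highest in the same hearts. *Cxcl16*, the ligand of Cxcr6, was at 11.6, 18.2 and 13.5 CPM (WT) and 15.8, 14.3 and 12.5 CPM (F3-KO) after sham, and at 19.8, 23.3 and 17.0 CPM (WT) and 25.8, 34.6 and 11.9 CPM (F3-KO) after TAC. *Cx3cl1*, the ligand of Cx3cr1, was at 11.6, 10.5 and 15.9 CPM (WT) and 14.9, 14.5 and 11.4 CPM (F3-KO) after sham, and at 13.7, 17.9 and 13.0 CPM (WT) and 24.3, 34.9 and 13.0 CPM (F3-KO) after TAC. Both were highest in F3-KO TAC replicates 1 and 2, and F3-KO TAC replicate 3 was within the sham range for both.

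The log2 fold change of TAC against sham was 0.62 ± 0.22 for *Cxcl16* (adjusted p = 0.185, edgeR) and 0.53 ± 0.21 for *Cx3cl1* (adjusted p = 0.221). Without F3-KO TAC replicate 3 these were 0.78 (adjusted p = 0.0208) and 0.67 (adjusted p = 0.0336), and without F3-KO TAC replicate 2, the highest heart for both, 0.43 (adjusted p = 0.386) and 0.33 (adjusted p = 0.474). Leaving out F3-KO TAC replicate 3 raised the number of ligands called from 0 to 5 (*Ccl8*, *Ccl12*, *Cxcl10*, *Cxcl16* and *Cx3cl1*) and the number of all genes called from 11 to 849 (5.92% of those tested). Leaving out WT sham replicate 2 gave 2 called ligands (*Ccl6* and *Ccl8*; 0.479% of all genes), and leaving out F3-KO TAC replicate 2 gave 2 (*Ccl8* and *Ccl12*; 0.266% of all genes).

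The eosinophil and neutrophil attractants were not higher after TAC. *Ccl11*, or eotaxin, was at 2.81, 5.77 and 2.78 CPM (WT) and 2.83, 4.41 and 4.12 CPM (F3-KO) after sham, and at 1.25, 3.17 and 4.60 CPM (WT) and 2.58, 1.21 and 2.55 CPM (F3-KO) after TAC. *Cxcl5*, a ligand of Cxcr2, was at 0.485, 0.916 and 0.818 CPM (WT) and 0.332, 1.64 and 0.641 CPM (F3-KO) after sham, and at 0.157, 0.440 and 0.400 CPM (WT) and 0.379, 1.91 and 0.412 CPM (F3-KO) after TAC. For both, the groups overlapped, and the log2 fold changes were -0.59 ± 0.34 (adjusted p = 0.381, edgeR) and -0.54 ± 0.55 (adjusted p = 0.634). For *Cxcl5* the value was -1.15 without F3-KO TAC replicate 2 and -0.13 without F3-KO sham replicate 2, the highest hearts of their groups.

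The next 5 ligands had no unadjusted p under 0.05. *Cxcl1*, a further Cxcr2 ligand, ranged from 0.874 to 4.49 CPM, with a log2 fold change of -0.09 ± 0.47, and *Ccl24*, which attracts eosinophils, from 0.191 to 2.66 CPM, with -0.47 ± 0.46. *Cxcl12* ranged from 139 to 406 CPM (-0.31 ± 0.22), *Ccl27a* from 3.40 to 6.48 CPM (-0.02 ± 0.21) and *Ccl25* from 0.470 to 1.46 CPM (-0.31 ± 0.28). *Ccl21a*, *Ccl21c* and *Cxcl14* are described below with the genotypes.

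The question whether pressure overload acts alike in each genotype was addressed by the contrasts within WT and within F3-KO hearts. In WT hearts 0 of 21 ligands were called by edgeR (0% of all genes), and 4 had an unadjusted p under 0.05 (6.28% of all genes). These were *Ccl8* with a log2 fold change of 2.24 ± 0.43, *Cxcl10* with 1.66 ± 0.68, *Ccl12* with 1.24 ± 0.44 and *Ccl25* with -0.88 ± 0.40, with unadjusted p of 0.00024, 0.0305, 0.0155 and 0.0485. Without WT TAC replicate 2, *Cxcl10* was at 1.01. DESeq2 called 1, *Ccl8* (adjusted p = 0.00152; 0.192% of all genes), and limma-trend 0.

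In F3-KO hearts 0 of 21 ligands were called by edgeR (0% of all genes), and 9 had an unadjusted p under 0.05 (17.1% of all genes), all higher after TAC. The largest was *Ccl12* with a log2 fold change of 2.15 ± 0.43 (adjusted p = 0.151, edgeR), then *Cxcl9* with 1.55 ± 0.48, *Ccl8* with 1.39 ± 0.40, *Cxcl10* with 1.30 ± 0.59 and *Ccl21c* with 1.26 ± 0.29. *Cxcl14*, *Cx3cl1*, *Cxcl16* and *Ccl21a* followed with 0.89, 0.82, 0.77 and 0.70. *Cxcl10* was at 0.45 (adjusted p = 0.787) without F3-KO TAC replicate 1, and *Cx3cl1* and *Cxcl16* at 0.44 and 0.39 without F3-KO TAC replicate 2. *Cxcl14* was at 0.53 without F3-KO TAC replicate 3. DESeq2 called 4, *Ccl8*, *Ccl12*, *Ccl21c* and *Cxcl9* (3.15% of all genes), and limma-trend 0. Without F3-KO TAC replicate 3, edgeR called 5, *Ccl12*, *Ccl21c*, *Ccl3*, *Cx3cl1* and *Cxcl16*, of which *Ccl3* did not pass the filter on low counts with all 12 hearts. In that fit 5.43% of all genes were called.

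The difference between these 2 contrasts, tested as the interaction of genotype and surgery, gave 0 called ligands by edgeR (0% of all genes), by DESeq2 (0.0426% of all genes) and by limma-trend. 1 ligand, *Ccl21c*, had an unadjusted p under 0.05 (4.48% of all genes), with a difference of 1.09 ± 0.41 on the log2 scale (adjusted p = 0.954, edgeR). The median log2 fold change of the tested ligands was 0.17 in WT and 0.70 in F3-KO hearts, against 0.00 and 0.02 over all genes tested. The 2 medians were not compared by a test.

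**Figure D3:**
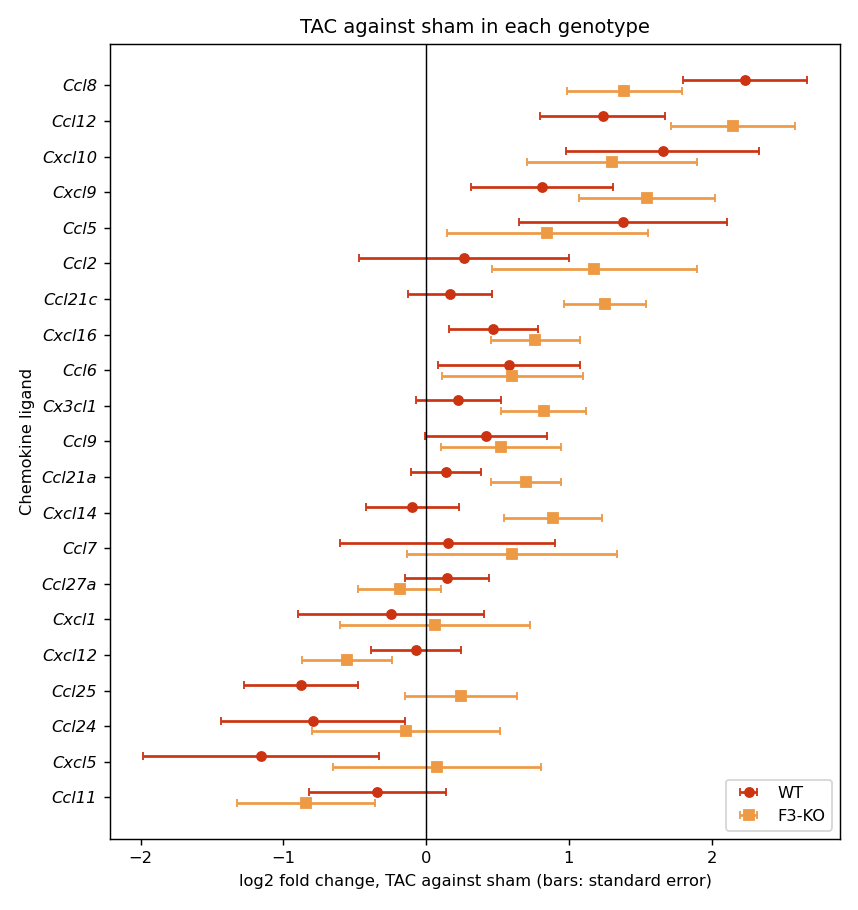
Log2 fold change of TAC against sham in WT hearts (circles) and F3-KO hearts (squares) for the 21 tested ligands, with standard errors as bars. *Ccl8*, *Ccl12*, *Cxcl10*, *Cxcl9* and *Ccl5* lie above 0 in each genotype, and *Cxcl14* is at -0.10 in WT and 0.89 in F3-KO hearts.

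The effect of *Fabp3* loss without overload was given by F3-KO against WT sham hearts. *Cxcl14*, named after its values were seen, stood out as lower in F3-KO hearts. It was at 24.7, 41.0 and 33.5 CPM (WT) and 6.32, 8.04 and 12.3 CPM (F3-KO) after sham, and at 32, 24.8 and 36.1 CPM (WT) and 16.8, 8.92 and 23.7 CPM (F3-KO) after TAC. Every F3-KO heart was below every WT heart, although F3-KO TAC replicate 3 was close to the lowest WT hearts.

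After sham, the log2 fold change of *Cxcl14* was -1.90 ± 0.35 (adjusted p = 0.0805, edgeR), and after TAC -0.91 ± 0.33 (adjusted p = 0.468). DESeq2 gave adjusted p of 6.4e-05 and 0.282. The average of both contrasts, F3-KO against WT over both surgeries, was added after the data were seen. In it *Cxcl14* fell by 1.41 on the log2 scale in F3-KO hearts (SE 0.24, adjusted p = 0.0277, edgeR), the only 1 of 21 ligands called, where 0.412% of all genes were called. The call was lost in 7 of the 12 fits that left out 1 heart, namely without WT sham replicates 2 or 3 (each alone), F3-KO sham replicates 1 or 2, replicates 1 or 3 of WT TAC, or the first F3-KO TAC heart, with a highest adjusted p of 0.107. DESeq2 called it as well (1.54% of all genes), and 5 ligands had an unadjusted p under 0.05 in edgeR (10.1% of all genes).

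Over all ligands, 0 of 21 were called by edgeR after sham (0.106% of all genes), and 3 had an unadjusted p under 0.05 (6.02% of all genes). Besides *Cxcl14* these were *Ccl8*, with a log2 fold change of 1.06 ± 0.44, and *Cxcl10*, with 1.63 ± 0.68, both higher in F3-KO hearts (adjusted p = 0.771 each, edgeR). DESeq2 called 1, *Cxcl14* (0.746% of all genes), and so did edgeR without F3-KO TAC replicate 2 or 3 (0.161% and 0.139% of all genes).

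After TAC, F3-KO against WT hearts gave 0 called ligands by edgeR (0.0780% of all genes) and 5 with an unadjusted p under 0.05 (10% of all genes). These were *Ccl21c*, *Cxcl9*, *Ccl12* and *Cx3cl1*, higher in F3-KO hearts with log2 fold changes of 1.21 ± 0.29, 1.51 ± 0.47, 1.01 ± 0.41 and 0.70 ± 0.30, and *Cxcl14*, lower. *Ccl12* was at 0.46 (adjusted p = 0.846) without F3-KO TAC replicate 1, and *Cx3cl1* at 0.32 (adjusted p = 0.884) without F3-KO TAC replicate 2. *Ccl8* did not differ by more than its error (0.22 ± 0.39). DESeq2 called 1, *Ccl21c* (adjusted p = 0.0294; 0.717% of all genes), and limma-trend 0. The median log2 fold change of the tested ligands was 0.09 after sham and 0.27 after TAC.

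The Ccl21 genes need to be read together, because the mouse genome holds near-identical copies of them. Ccl21 proteins bind Ccr7 and are known for guiding dendritic cells and T cells into lymphatics and lymph nodes. The copy expressed in lymph nodes is known as the serine form and that of peripheral lymphatics as the leucine form. The rows of *Ccl21c*, *Gm21541*, *Gm10591* and *Gm13304* held identical values in all 12 libraries, so they are 1 measurement entered 4 times, and reads from these copies could not be assigned to any one of them. The stretches below, coding bases 72 to 206 of 399 (GENCODE M21, GRCm38, chromosome 4), show the only coding positions at which *Ccl21a* and the copy *Gm21541* differ, in capitals.
Ccl21a, chr4:42772860-42773993, minus strand: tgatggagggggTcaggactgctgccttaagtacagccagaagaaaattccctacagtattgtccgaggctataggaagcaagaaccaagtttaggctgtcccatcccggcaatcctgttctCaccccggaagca
Gm21541, chr4:41903610-41904743, plus strand: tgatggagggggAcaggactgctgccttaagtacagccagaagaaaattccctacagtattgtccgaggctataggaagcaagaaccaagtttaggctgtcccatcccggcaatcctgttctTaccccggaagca
Counted from the first coding base of *Ccl21a*, the differences are T84A and C194T. The coding sequences of *Gm13304*, *Gm10591* and *Ccl21b* in the annotation are identical to that of *Gm21541*. Within the coding sequence, the split of reads between *Ccl21a* and these copies therefore rests on few positions. The transcript of *Ccl21a* has 870 bases. Those outside the coding sequence were not compared, nor was the sequence of *Ccl21c*, and the split is uncertain.

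*Ccl21a* was at 54.7, 71.5 and 40.8 CPM (WT) and 57.6, 56.4 and 31.7 CPM (F3-KO) after sham, and at 63.3, 61.0 and 59.8 CPM (WT) and 99.2, 68.0 and 69.7 CPM (F3-KO) after TAC. F3-KO TAC replicate 1 was above all other hearts. All TAC hearts exceeded all sham hearts other than WT sham replicate 2, at 71.5 CPM, which also exceeded the remaining TAC hearts. Each F3-KO TAC heart was above each WT TAC heart. The log2 fold change of TAC against sham was 0.42 ± 0.17 (adjusted p = 0.235, edgeR).

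The copies, their 4 rows summed, were at 20.2, 30.1 and 16.4 CPM (WT) and 21.8, 30.4 and 20.2 CPM (F3-KO) after sham, and at 31.9, 23.1 and 19.4 CPM (WT) and 74.2, 44.9 and 53.4 CPM (F3-KO) after TAC. As listed under *Ccl21c*, in 1 of the 4 identical rows, the values were 5.05, 7.51 and 4.09 CPM (WT) and 5.40, 7.61 and 5.04 CPM (F3-KO) after sham, and 8.00, 5.81 and 4.80 CPM (WT) and 18.6, 11.2 and 13.3 CPM (F3-KO) after TAC. The 3 F3-KO TAC hearts were above the other 9, which overlapped. For *Ccl21c*, TAC against sham over both genotypes gave a log2 fold change of 0.71 ± 0.20 (adjusted p = 0.128, edgeR).

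With the rows summed, an alternative added after the data were seen, the log2 fold change of the copies in F3-KO hearts after TAC was 1.21 ± 0.27 against WT TAC (adjusted p = 0.215, edgeR) and 1.25 ± 0.27 against F3-KO sham (adjusted p = 0.171). Over both genotypes, TAC against sham was 0.71 ± 0.19 (adjusted p = 0.114).

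The ratio of the summed copies to *Ccl21a*, which does not depend on library scaling, was 0.397 ± 0.026 (SD, n = 3) for WT and 0.518 ± 0.13 for F3-KO hearts after sham, and 0.403 ± 0.092 for WT and 0.725 ± 0.056 for F3-KO hearts after TAC. The 3 F3-KO TAC hearts, at 0.661 to 0.766, were above every other heart, the highest of which was F3-KO sham replicate 3 at 0.636. The two-sided exact permutation test of F3-KO against WT after TAC gave p = 0.1, as did TAC against sham in F3-KO hearts, the smallest p that 3 against 3 allows. The exact test gave p = 0.9 for TAC against sham in WT hearts and p = 0.3 for F3-KO against WT after sham. These 4 tests were chosen after the values were seen, and the Benjamini-Hochberg adjusted p of these exact tests were 0.2, 0.2, 0.9 and 0.4 in the same order.

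**Figure D4:**
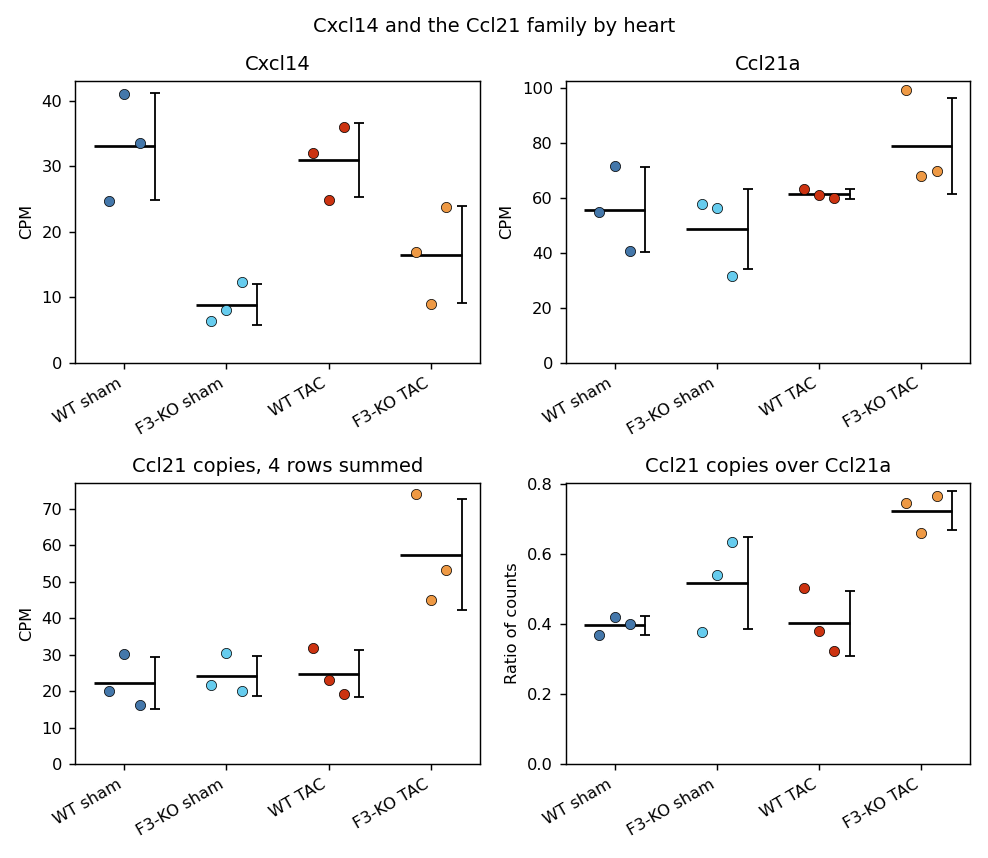
CPM of *Cxcl14*, *Ccl21a* and the 4 summed Ccl21 copies, and the ratio of the copies to *Ccl21a*, in the 4 groups; points are hearts, lines are means and bars are SD (n = 3). *Cxcl14* is lower in all F3-KO than in all WT hearts, and the ratio is highest in the F3-KO TAC hearts, at 0.661 to 0.766.

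Promoter sequence was looked at for the ligands with the largest differences. The 250 bases before the RefSeq start site of 26 ligands (GRCm38.p6) were searched on both strands for 4 motifs. GAAANNGAA, the core of an interferon-stimulated response element, was found in 6 of the 26, *Cxcl9*, *Cxcl10*, *Cxcl14*, *Ccl1*, *Ccl3* and *Ccl19*, and in 7.13% of all 32851 promoters of the same length. GGGANTTCC, an NF-kB motif, was in 2 of 26, *Cxcl9* and *Cxcl10*, and in 1.43% of all. TTCNNNGAA, the interferon-gamma activation site, was in *Cxcl14* and *Ccl17* and in 7.02% of all, and TATAAA was in 8 of 26, *Ccl8* and *Ccl12* among them, and in 12.4% of all. No overlap between motifs was found in the promoters shown. *Ccl2*, *Ccl4*, *Ccl5*, *Ccl7*, *Ccl11*, *Ccl21c*, *Ccl24*, *Cxcl5*, *Cxcl16* and *Cxcl17* were not searched.

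The 5 promoters below are the 250 bases before the start site, 5′ to 3′ on the strand of the gene, with the motif matches in capitals. They are printed to show the 2 pairs of neighbours with the largest TAC differences, *Cxcl9* with *Cxcl10* and *Ccl12* with *Ccl8*, and *Cxcl14*.
Cxcl9, chr5:92328080-92328329, minus strand: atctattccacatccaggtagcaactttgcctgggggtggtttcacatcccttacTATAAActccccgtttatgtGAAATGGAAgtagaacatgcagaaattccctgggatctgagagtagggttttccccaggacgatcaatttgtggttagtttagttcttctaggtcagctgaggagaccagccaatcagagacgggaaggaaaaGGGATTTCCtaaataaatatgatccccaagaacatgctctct
Cxcl10, chr5:92348890-92349139, minus strand: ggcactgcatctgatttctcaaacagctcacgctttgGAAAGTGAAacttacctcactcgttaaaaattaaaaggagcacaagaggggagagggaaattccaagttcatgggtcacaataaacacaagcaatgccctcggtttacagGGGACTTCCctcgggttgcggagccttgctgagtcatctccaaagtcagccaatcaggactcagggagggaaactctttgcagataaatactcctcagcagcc
Ccl12, chr11:82101595-82101844, plus strand: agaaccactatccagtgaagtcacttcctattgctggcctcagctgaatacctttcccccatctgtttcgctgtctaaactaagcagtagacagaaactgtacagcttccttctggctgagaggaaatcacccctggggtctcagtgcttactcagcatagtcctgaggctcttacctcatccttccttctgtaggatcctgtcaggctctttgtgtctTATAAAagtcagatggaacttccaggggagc
Ccl8, chr11:82114935-82115184, plus strand: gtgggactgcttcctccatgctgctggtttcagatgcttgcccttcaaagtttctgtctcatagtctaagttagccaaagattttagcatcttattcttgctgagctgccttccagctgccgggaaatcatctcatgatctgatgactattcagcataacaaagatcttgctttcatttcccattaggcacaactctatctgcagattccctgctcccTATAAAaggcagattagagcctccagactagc
Cxcl14, chr13:56296552-56296801, minus strand: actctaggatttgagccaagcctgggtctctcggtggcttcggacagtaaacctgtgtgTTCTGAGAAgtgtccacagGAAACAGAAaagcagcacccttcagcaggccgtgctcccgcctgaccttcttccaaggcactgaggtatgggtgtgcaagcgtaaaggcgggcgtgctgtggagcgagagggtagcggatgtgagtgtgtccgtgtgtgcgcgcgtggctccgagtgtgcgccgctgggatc
In *Ccl12* and *Ccl8* the TATAAA match starts 31 and 32 bases before the start site. The GGGANTTCC match starts 42 bases before it in *Cxcl9* and 103 bases before it in *Cxcl10*. A match is a run of letters and not a measured binding site.

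The receptors were described from a list of 19, of which 18 were in the table and 8 passed the filter. 0 of 8 were called by edgeR for TAC against sham over both genotypes, 5 had an unadjusted p under 0.05, all higher after TAC (11.3% of all genes), and the median log2 fold change was 0.99. DESeq2 called 3 of the 8 (4.66% of all genes), and so did edgeR without F3-KO TAC replicate 3 (5.92% of all genes). Among those called by DESeq2, and named after their values were seen, were *Ccr2*, the monocyte receptor for *Ccl2*, *Ccl7* and *Ccl12*, and *Cx3cr1*, the receptor for *Cx3cl1*.

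*Ccr2* was at 2.14, 5.77 and 3.19 CPM (WT) and 4.40, 4.93 and 4.12 CPM (F3-KO) after sham, and at 8.00, 4.93 and 3.10 CPM (WT) and 12.4, 24.7 and 7.83 CPM (F3-KO) after TAC. *Cx3cr1* was at 3.40, 3.76 and 3.84 CPM (WT) and 4.32, 3.54 and 2.29 CPM (F3-KO) after sham, and at 5.64, 10.9 and 3.40 CPM (WT) and 21.2, 17.1 and 2.55 CPM (F3-KO) after TAC. Both were highest in F3-KO TAC replicates 1 and 2, while replicate 3 was lower, for *Cx3cr1* within the sham range.

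The log2 fold changes of TAC against sham were 1.14 ± 0.33 for *Ccr2* and 1.43 ± 0.43 for *Cx3cr1* (adjusted p = 0.128 and 0.144, edgeR). Leaving out F3-KO TAC replicate 3 gave 1.29 and 1.67 (adjusted p = 0.0348 and 0.0132), and leaving out F3-KO TAC replicate 2 gave 0.84 and 1.32 (adjusted p = 0.268 and 0.269). *Cxcr6*, the receptor of *Cxcl16*, and *Ccr1* also had an unadjusted p under 0.05, with log2 fold changes of 1.25 ± 0.51 and 1.12 ± 0.41. *Cxcr4*, the receptor of *Cxcl12*, was at 4.66 to 8.34 CPM with 0.13 ± 0.19. *Ccr7*, *Cxcr3* and *Ccr3*, the receptors of the Ccl21 proteins, of *Cxcl9* and *Cxcl10*, and of *Ccl11*, were too low to test, and *Ccr3*, *Ccr4*, *Ccr8*, *Cxcr1* and *Ccr1l1* had 3 counts or fewer in every library.

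Of 5 atypical receptors, which bind chemokines without G protein signalling, 4 were tested, 0 were called by edgeR, and 2 were higher and 1 lower after TAC at an unadjusted p under 0.05 (17.8% of all genes). *Ackr2*, a scavenger of inflammatory CC ligands, had a log2 fold change of 1.00 ± 0.24, *Ackr4*, which binds the Ccl21 proteins and *Ccl19*, 0.91 ± 0.27, and *Ccrl2* -0.79 ± 0.16 (adjusted p = 0.104, 0.133 and 0.0942, edgeR), and DESeq2 called all 3 (4.66% of all genes). Outside the naming rule, the platelet chemokine *Pf4* had 0.26 ± 0.25, and *Ppbp* was listed at 0 in 11 hearts.

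Of 18 inflammatory cytokines, 7 were tested and 0 called by edgeR, with a median log2 fold change of 0.21 for TAC against sham. At an unadjusted p under 0.05 there was 1 (17.8% of all genes), *Spp1*, osteopontin, with 2.42 ± 0.56 (adjusted p = 0.104, edgeR). *Spp1* was at 5.01, 12.2 and 1.48 CPM in F3-KO TAC hearts, 1.10 to 1.80 CPM in WT TAC hearts and at most 1.04 CPM after sham. DESeq2 called 1 of the 7 (4.66% of all genes). *Tnf*, *Il6*, *Il10* and *Il1a* were too low to test. All 15 genes of the NF-kB list were tested, 0 were called by edgeR, and the median was 0.11. At an unadjusted p under 0.05 (17.8% of all genes), *Tnip1* was higher and *Nfkbia* lower (0.39 ± 0.10 and -0.30 ± 0.13). DESeq2 called 1 of the 15 (4.66% of all genes).

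In the marker lists, as among the ligands, edgeR called 0 macrophage, monocyte or fibroblast markers for TAC against sham, while 11.3% of all genes were higher at an unadjusted p under 0.05 and DESeq2 called 4.66%. All 10 macrophage markers were tested, 10 had a positive log2 fold change of TAC against sham, 8 of them with an unadjusted p under 0.05, 7 were called by DESeq2, and the median was 0.75. Their summed level, scaled by the library total, was 254 to 559 CPM (WT) and 379 to 455 CPM (F3-KO) after sham, and 467 to 747 CPM (WT) and 633 to 921 CPM (F3-KO) after TAC. 5 of 6 monocyte markers were tested, 4 had an unadjusted p under 0.05 and 3 were called by DESeq2, with a median of 1.14 and sums of 45.4 to 73.6, 68.0 to 97.9, 56.5 to 197 and 73.9 to 581 CPM in the same order of groups. Most of the monocyte sum was *Fn1*, fibronectin, which fibroblasts also make, and *Ccr2* is in both this list and the receptors. Without *Fn1* the sum was 7.29 to 24.5 CPM (WT) and 13.9 to 17.9 CPM (F3-KO) after sham, and 18.5 to 29.9 CPM (WT) and 22.9 to 49.6 CPM (F3-KO) after TAC. Of the 7 fibroblast markers, 5 had an unadjusted p under 0.05 and 4 were called by DESeq2, and they had a median of 1.15 and sums of 662 to 1512, 929 to 1284, 1285 to 2953 and 1413 to 6559 CPM in the same order. The 6 cardiomyocyte markers had a median of 0.05 in WT and -0.44 in F3-KO hearts after TAC, where all 6 were negative, 0 were called by edgeR, and DESeq2 called 2 lower, *Myh6* and *Tnni3* (3.15% of all genes). The part of these lists in the ligand differences was not tested.

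T cell markers, of which 2 of 6 were tested, summed to 1.92 to 3.25 CPM in WT sham and 2.86 to 7.83 CPM in F3-KO TAC hearts, with 3.26 to 9.87 CPM in WT TAC and 2.94 to 4.45 CPM in F3-KO sham hearts, and their median log2 fold change was 1.04. The highest sum was in WT TAC replicate 2, the heart with the most *Ccl5*. The part of T cell markers in the *Ccl5* values was not tested. Neutrophil markers, of which 3 of 7 were tested and *Elane* and *Mpo* had 3 counts or fewer in every library, summed to 1.5 to 35.8 CPM (WT) and 7.71 to 14.7 CPM (F3-KO) after sham, and 4.91 to 15.2 CPM (WT) and 0.742 to 8.99 CPM (F3-KO) after TAC, with a median log2 fold change of -0.87 that includes WT sham replicate 2. B cell markers, none of 4 tested, summed to at most 2.3 CPM, and the thymus markers *Rag1* and *Rag2* had 3 counts or fewer in every library, the only 1 of that list tested having 0.38. The summed level of 6 endothelial markers was 734 to 1457 CPM over all hearts, with a median log2 fold change of -0.09. Platelet markers (4 of 5 tested) had a median of 0.00 over both genotypes, with 0.69 in WT and -0.59 in F3-KO hearts. For pericyte and smooth muscle markers (6 of 6 tested) the median over both genotypes was -0.03. Adipocyte markers, none of 3 tested, summed to at most 0.989 CPM.

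Red blood cell markers had a median log2 fold change of -0.68 for TAC against sham over both genotypes. The median was 0.94 in WT and -2.21 in F3-KO hearts, with 0 of 4 called by edgeR in either (0% of all genes). Their sums were 463 to 1224 CPM (WT) and 756 to 3115 CPM (F3-KO) after sham, and 221 to 3068 CPM (WT) and 257 to 674 CPM (F3-KO) after TAC. The sums of 4 mesothelial markers, from the surface of the heart, ranged from 7.20 to 55.8 CPM, both in WT sham hearts. Their median log2 fold change was -0.05 for TAC against sham over both genotypes. For F3-KO against WT it was -0.29 after sham, 0.03 after TAC and -0.13 over both surgeries. The part of the mesothelial markers in the *Cxcl14* difference was not tested.

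**Figure D5:**
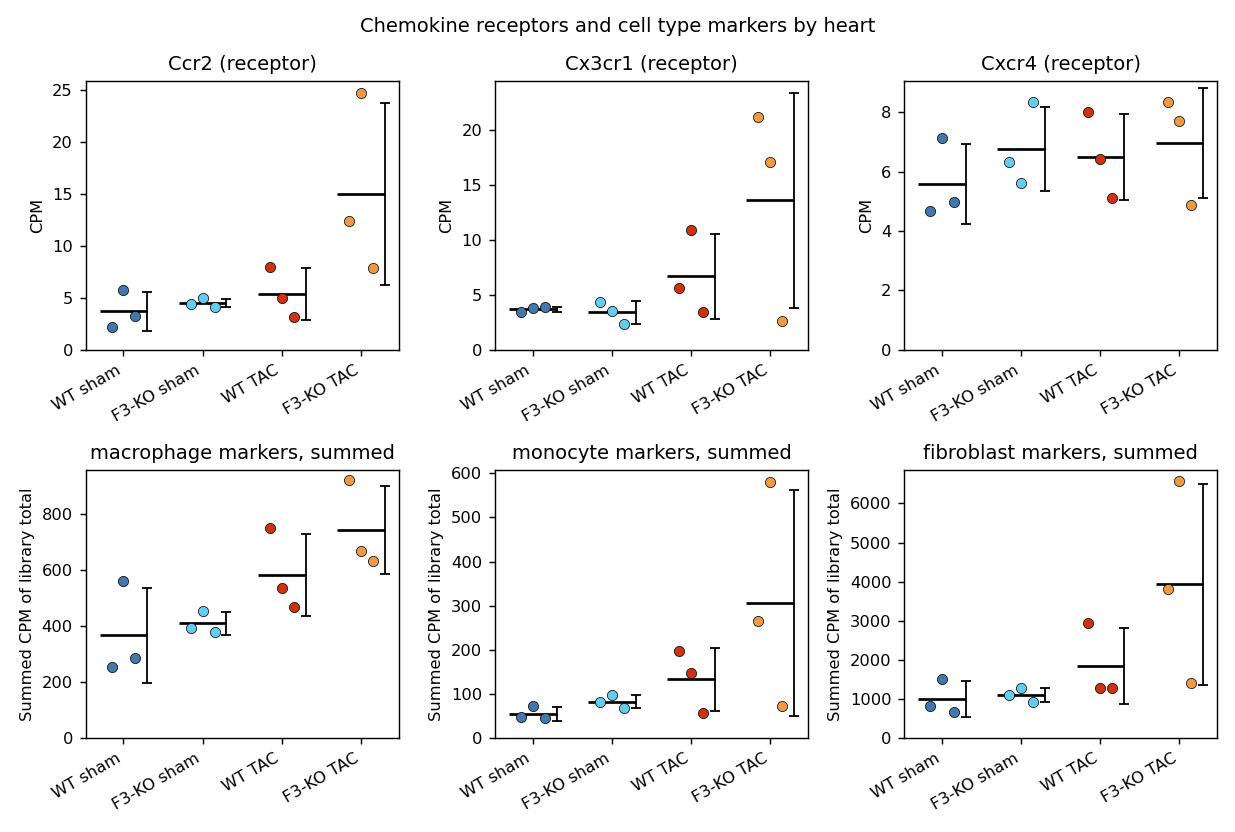
CPM of the receptors *Ccr2*, *Cx3cr1* and *Cxcr4*, and the summed CPM of 10 macrophage, 6 monocyte and 7 fibroblast markers, by group; points are hearts, lines are means and bars are SD (n = 3). F3-KO TAC replicates 1 and 2 are the highest 2 of the 12 hearts for the fibroblast sum, at 3825 and 6559 CPM, and replicate 3 is at 1413 CPM.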

How the data were processed

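RNA from 12 whole mouse hearts was measured by sequencing, 3 per group. The authors removed adapter and low-quality reads with SOAPnuke, mapped reads with HISAT2 2.0.4 and STAR 2.3.0 per the submitters' processing notes, and tested with DESeq2. The notes name the builds mm8 and mm9 without a role, and the counting tool is not given in the sources used here. The deposited values are estimated counts per gene, not normalized, and 40.6% of them are not whole. The tests had been planned for whole counts, and the values were rounded. For 11 hearts the separate table held the same values as the joint table; that of WT sham replicate 2 breaks off early and was not used. 0 sample columns were left out.

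Genes were filtered with filterByExpr (minimum count 10), scaled with TMM factors (0.931 to 1.09) and fitted with edgeR 4.0.16 in R 4.3.3, using glmQLFit and glmQLFTest on all 12 hearts. Adjusted p values are Benjamini-Hochberg over the 14094 genes tested, with calls under 0.05. The common biological coefficient of variation was 0.232. CPM of single genes is TMM-scaled, and marker sums are scaled by the library total. The SE is the absolute log2 fold change over the square root of F. Alternatives were DESeq2 1.42.0, DESeq2 size factors, other filters, limma-trend (limma 3.58.1, prior count 2), the replicate number as a block, only the compared groups, a threshold of 1 on the absolute log2 fold change, and leaving out each heart. The tests were run on simulated data first. The hearts are biological replicates according to the series, and every pair within a group differed by more than sampling noise (chi-square per degree of freedom 10.4 to 85.4).

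The ligands and all gene lists were chosen with earlier results of these data known. Values in all hearts were given for ligands called in any of 6 contrasts (none) and for those with the largest absolute log2 fold change of TAC against sham, to a total of 12, and receptors and other listed genes were named when called. *Cxcl14*, the Ccl21 copies, and the receptors and other listed genes named one by one were added after their values were seen, as were the fits without each heart for *Ccr2* and *Cx3cr1*, the alternatives for *Ccl21a* and *Ccl25*, and the monocyte sum without *Fn1*. The values of 1 receptor are not reported here.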

Additional observations from a re-analysis of the deposited data

Results flagged for a closer look

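*Ccl25*, a chemokine of thymus and gut, was on opposite sides of the sham mean in the 2 genotypes: it was at 1.46, 1.37 and 1.31 CPM in WT sham and 0.470, 0.792 and 1.00 in WT TAC hearts, and at 0.748, 1.04 and 0.916 in F3-KO sham and 1.21, 1.08 and 0.906 in F3-KO TAC hearts. Every WT TAC heart was below the mean of the WT sham hearts, and every F3-KO TAC heart was above the mean of the F3-KO sham hearts. That F3-KO sham mean was 0.900 CPM, so F3-KO TAC replicate 3, at 0.906 CPM, practically equalled it. This heart was below F3-KO sham replicates 2 and 3. The genotype by surgery difference was 1.12 on the log2 scale (SE 0.56, adjusted p = 0.954, edgeR), which missed the threshold. The gene had 6 to 17 counts per library.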

How the results depend on the processing

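No ligand printed with its values in all hearts changed direction under the alternatives for TAC against sham over both genotypes, or for the other contrasts in which its unadjusted p was under 0.05; *Ccl21a* and *Ccl25* were added to these after the data were seen. In place of 0 ligands, DESeq2 called 4 for TAC against sham over both genotypes (4.66% of all genes), as well as 3 receptors. It called 4 ligands in F3-KO hearts (3.15% of all genes) and 1 in WT hearts (0.192%). For F3-KO against WT it called 1 after sham (0.746%) and 1 after TAC (0.717%). Over both genotypes, no filter on low counts gave 1 ligand, 10 counts or more in every library 2, and limma-trend 1. Using only the compared groups gave 1 for F3-KO against WT after sham. For these fits the share of all genes called is not given here, so their counts are not read as a result about the ligands. With limma-trend the median of the genotype by surgery difference was 0.198 in place of 0.449. Leaving out each heart in turn gave 0 to 5 called ligands over both genotypes, 0 to 5 in F3-KO hearts, 0 to 1 for F3-KO against WT after sham and over both surgeries, and 0 to 3 receptors. Medians then ran from 0.381 to 0.716 over both genotypes, 0.48 to 0.977 in F3-KO hearts, 0.073 to 0.553 in WT hearts, -0.092 to 0.403 and 0.163 to 0.592 for F3-KO against WT after sham and after TAC, 0.085 to 0.479 over both surgeries, and 0.093 to 0.802 for the genotype by surgery difference. The cause was not tested. Same-numbered hearts deviated together with r from -0.14 to 0.36, over 0.1 in 4 of 18 pairs, so the numbers were not taken to pair the hearts; with the replicate block 0 ligands were called in each of the 6 contrasts. The 15 untested ligands were too low in these libraries for a test.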
